A study of Mus musculus with 42 samples.

Results

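The dorsomedial hypothalamus (DMH) was compared between fasted and ad libitum–fed mice, over every gene of the table. The members were the 9 DMH libraries of 42 in the series, 4 of them from mice fasted for 24 hours and 5 from mice fed ad libitum. They were chosen by their labels alone. All were from adult male wild-type C57/BL6 mice, so no genotype or agent differed between the groups. The other 33 libraries came from the arcuate nucleus (ARC), ventromedial hypothalamus (VMH) and paraventricular nucleus (PVN) under the same nutritional states. Tissue was taken from brain sections by laser-capture microdissection, and the small amounts of RNA were amplified before sequencing. The labels number the libraries but name no mouse, so the p-values measure the spread between libraries.

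The DMH is a hypothalamic nucleus that lies above the VMH and takes part in feeding, body temperature and the daily timing of activity around meals. Fasting lowers leptin and insulin and raises circulating glucocorticoids, which reach the brain and act through receptors that bind DNA. Neurons, astrocytes, vessels and other cells were captured together, so a lower level of a gene cannot be told apart from fewer cells that express it.

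Values were RPKM, the reads of a gene scaled by its length and by the depth of its library. A change is the difference in log2(RPKM + 1), fasted minus fed, given with its standard error (SE). It was called at a limma adjusted p under 0.1. Depth, as estimated from the values, averaged 3.91 M reads over the 5 fed libraries (SD 0.862) and 7.38 M reads over the 4 fasted ones (SD 4.0). The groups differed by an exact permutation test (p = 0.0476, two-sided, smallest possible 0.0159). Without DMH-Fast library 4, the deepest at 13.2 M reads, the fasted mean was 5.42 M reads (exact permutation p = 0.107). The number of genes with reads ranged from 19343 to 20974 in fed and from 19708 to 22808 in fasted libraries. IDs without a symbol held 25.8% ± 1.7 of the summed RPKM in fed and 28.9% ± 2.7 in fasted libraries (exact permutation p = 0.0794). A fit with depth as a covariate called 6 genes, 5 of them among the 8 described here. By the values, the libraries fell into 3 sets, called batches here. Of the DMH libraries, only DMH-Fed library 1 lay in batch 1, and batches 2 and 3 each held 2 fasted and 2 fed ones. By the values, batch means had been removed, so levels in DMH-Fed library 1 may be shifted by the other nuclei of its batch. The size of such a shift was not tested.

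The captured tissue carried the marker genes of its label. In fed mice, Npvf, a peptide gene of the DMH, had a mean of 103 RPKM in the DMH, while the ARC (1.61), VMH (2.5) and PVN (1.82) were far lower. The melatonin-related receptor gene Gpr50 was at 54.5 RPKM against 10.5, 1.24 and 1.17, and the peptide gene Grp at 16.6 against 2.1, 1.14 and 3.05. Ppp1r17 was also highest in the DMH, at 49.6 RPKM. Cckar, the cholecystokinin A receptor gene, went against the label with 7.25 RPKM in the DMH and 24.7 in the PVN, and Prlh had no reads in any library. The summed level of these 6 DMH markers spanned 189 to 277 RPKM in fed and 184 to 289 in fasted libraries. Genes of the neighboring lateral hypothalamus were present as well, with Hcrt (orexin) at 187 and Pmch (melanin-concentrating hormone) at 420 RPKM in fed mice. Exons of another annotated gene cover 58.1% of the exon length of Pmch, so its level is uncertain. Pmch was at 1003 RPKM in DMH-Fed library 1 and at 220 to 307 in the other fed libraries, and Hcrt at 446 and at 48.8 to 222 RPKM. The summed lateral markers spanned 278 to 1454 RPKM in fed and 408 to 637 in fasted libraries. DMH-Fed library 1 was the only DMH library of its batch, so the removal of batch means may have shifted its region markers.

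After 24 hours without food, 8 of 33579 genes rose in the DMH and 0 fell at an adjusted p under 0.1. The genes were the metallothioneins Mt1 and Mt2, the glutamine synthetase gene Glul, the stress-induced gene Fam107a, the activin receptor gene Acvr1b, the membrane protein gene Lsmem1, and the pseudogenes Gm13238 and Gm6788. The calls were 0.0238% of the genes tested in the upward and 0.0% in the downward direction. Both counts depended on single libraries, with 6 to 89 calls when 1 library was left out. Lower calls then appeared as well, with 9 genes higher and 5 lower without DMH-Fed library 1, 7 and 7 without DMH-Fed library 2, and 8 and 6 without DMH-Fed library 3. With array weights, 50 were higher and 6 lower. With the 9 DMH libraries fitted alone, 0 genes were called. Reads were present in all 9 DMH libraries for 5 of the 8, namely Glul, Mt1, Fam107a, Mt2 and Acvr1b. At an unadjusted p under 0.05, 1341 genes (3.99%) were higher and 834 (2.48%) lower in fasted mice. When the values were rescaled without the IDs that carry no symbol, these counts were 800 and 1049, so the balance of directions rested on that scaling. Fasted and fed libraries did not overlap for 230 genes with the higher values in fasted mice (0.685%) and for 157 with the lower (0.468%). Among the 15028 genes with reads in all 9 libraries, the shares at an unadjusted p under 0.05 were 2.42% and 1.74%, and those without overlap 1.24% and 0.905%.

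**Figure D1:**
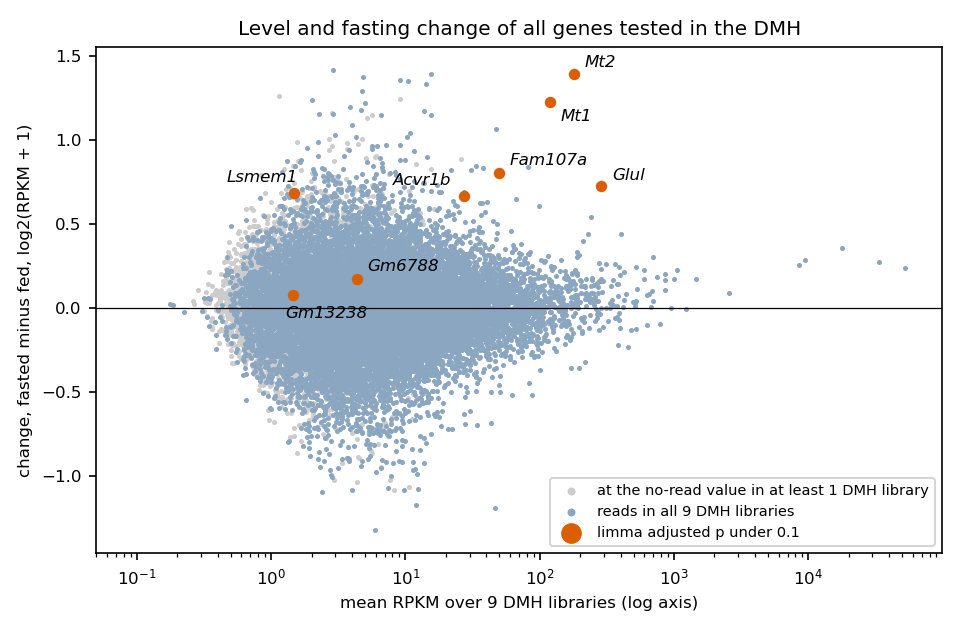
Mean RPKM over the 9 DMH libraries (log axis) against the fasted minus fed change in log2(RPKM + 1), with 1 point for each of 33579 genes. The 8 called genes are marked and all lie above 0, with Mt1, Mt2, Glul, Fam107a and Acvr1b at a mean above 20 RPKM and Gm13238, Gm6788 and Lsmem1 under 5 RPKM.

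Mt1 and Mt2 encode small cysteine-rich proteins that bind zinc and copper and whose transcription responds to metals and to glucocorticoids. Mt1 (ENSMUSG00000031765, chromosome 8, 94179082 to 94180327 on GRCm38, plus strand) was at 75.0, 92.0, 69.2, 54.2 and 83.5 RPKM in the fed and at 158, 173, 172 and 193 RPKM in the fasted libraries. Every fasted library lay above every fed one. The mean went from 74.8 ± 14.4 (SD, n = 5) to 174 ± 14.6 RPKM (n = 4), a change of 1.23 (SE 0.18, limma adjusted p = 0.00136). Mt2 (ENSMUSG00000031762, chromosome 8, 94172664 to 94173568, plus strand) was at 79.2, 104, 140, 81.4 and 116 RPKM in the fed and at 278, 361, 207 and 253 RPKM in the fasted libraries. Its groups did not overlap either, and it rose by 1.40 (SE 0.25, limma adjusted p = 0.0174), from 104 ± 25.1 to 275 ± 64.6 RPKM. Exons of another annotated gene cover 73.5% of the exon length of Mt2, and reads without strand cannot be assigned between them, so its level is uncertain. Within batches 2 and 3, the change was 1.04 and 1.43 for Mt1 and 1.39 and 1.23 for Mt2.

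The promoters of both metallothionein genes are shown because these neighboring genes rose together. Each run holds 250 bases before and 50 bases after the RefSeq start, 5′ to 3′ on the plus strand of GRCm38.p6, at chr8:94178839-94179138 for Mt1 and chr8:94172368-94172667 for Mt2. Capitals mark each match, on either strand, to TGCNCNC, here called the metal core, or to the core bound by the glucocorticoid receptor, ACANNNTGT. N is any base. The core of the metal response element takes only A or G at the fourth base, so TGCNCNC is looser than that element.
Mt1: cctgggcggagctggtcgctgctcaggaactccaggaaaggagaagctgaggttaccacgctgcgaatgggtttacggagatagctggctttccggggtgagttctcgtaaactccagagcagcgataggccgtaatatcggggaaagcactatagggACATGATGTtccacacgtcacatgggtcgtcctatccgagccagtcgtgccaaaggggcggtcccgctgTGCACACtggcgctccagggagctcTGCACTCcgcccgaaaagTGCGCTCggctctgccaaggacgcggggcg
Mt2: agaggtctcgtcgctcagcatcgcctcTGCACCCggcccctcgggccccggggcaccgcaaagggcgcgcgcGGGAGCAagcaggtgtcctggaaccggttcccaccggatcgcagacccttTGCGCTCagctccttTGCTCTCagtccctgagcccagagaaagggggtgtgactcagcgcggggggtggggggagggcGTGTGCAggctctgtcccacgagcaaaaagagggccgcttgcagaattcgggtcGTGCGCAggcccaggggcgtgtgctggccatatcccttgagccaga
The Mt1 window held 3 matches to the metal core and 1 to the receptor core, ACATGATGT. Of its metal matches, TGCACTC and TGCGCTC lay after the start. The Mt2 window held 6 matches to the metal core, with GTGCGCA after the start, and 0 to the receptor core. Among the 6, TGCTCTC and GGGAGCA, a minus-strand match, have T at the fourth base and do not match the stricter element. Of all 32851 promoter windows, 51.0% held the metal core at least once, 2.3% held it at least 4 times, and 6.85% held the receptor core. These letters are short, and a match is a description of the window, not a measured site.

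Glul encodes glutamine synthetase, the enzyme with which astrocytes turn glutamate and ammonia into glutamine. Glul (ENSMUSG00000026473, chromosome 1, 153899944 to 153909723, plus strand) was at 203, 249, 222, 219 and 219 RPKM in the fed and at 381, 410, 324 and 364 RPKM in the fasted libraries. The groups were set apart by a wide gap and it rose by 0.73 (SE 0.11, limma adjusted p = 0.00136), from 222 ± 16.9 (SD, n = 5) to 370 ± 36.2 RPKM (n = 4). Of its 50-base stretches, 12.6% recur in the pseudogene Glns-ps1. Fam107a encodes an actin-associated protein that is induced by stress and glucocorticoids. Fam107a (ENSMUSG00000021750, chromosome 14, 8296274 to 8318023, minus strand) was at 38.8, 42.4, 35.0, 29.5 and 39.1 RPKM in the fed and at 69.1, 70.9, 70.3 and 51.2 RPKM in the fasted libraries. It rose by 0.80 (SE 0.13, limma adjusted p = 0.00391), with DMH-Fast library 4 below the other fasted libraries and still above every fed one. Acvr1b encodes ALK4, a type I receptor of the activin pathway. Acvr1b (ENSMUSG00000000532, chromosome 15, 101174067 to 101213684, plus strand) was at 21.8, 20.6, 22, 21.8 and 19.96 RPKM in the fed and at 28.8, 48.0, 34.1 and 29.6 RPKM in the fasted libraries. Its fed libraries were close together and its fasted libraries spread, with DMH-Fast library 2 the highest. The change was 0.67 (SE 0.13, limma adjusted p = 0.0832), and it was no longer called without that library (0.51, limma adjusted p = 0.153) or without DMH-Fed library 2, 4 or 5.

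**Figure D2:**
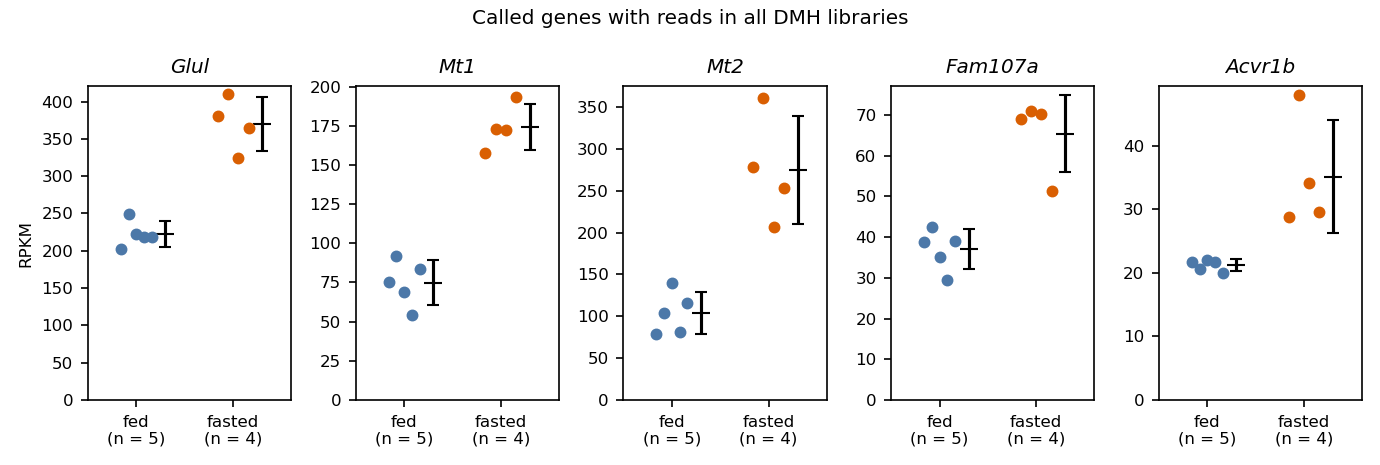
RPKM of the 5 called genes with reads in all DMH libraries, in 5 fed (blue) and 4 fasted (orange) libraries, with each panel on its own scale from 0. Each point is a library and the bar beside the points is the mean with its SD; in every panel the lowest fasted point lies above the highest fed point.

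Glul, Mt1, Fam107a and Mt2 stayed past the threshold in 21 of 22 alternative fits, each without any 1 of the 9 libraries included, and were lost when the 9 DMH libraries were fitted alone (lowest adjusted p = 0.207). Acvr1b stayed in 13 of 22. All fits but that of the DMH alone took their spread over the libraries of all nuclei, so they were not independent of each other. Within batches 2 and 3, the change was 0.75 and 0.65 for Glul, 0.84 and 0.80 for Fam107a and 0.78 and 0.59 for Acvr1b, so each kept its direction. The call for Acvr1b was nonetheless lost with batch or depth as a covariate and when values were rescaled without the IDs that carry no symbol.

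The other 3 called genes had reads in 3 of the 9 DMH libraries each. Gm13238 was at 1.39 to 1.41 RPKM in the fed libraries, which is its no-read value, and at 1.40 to 1.66 in the fasted ones, a change of 0.08 (SE 0.01, limma adjusted p = 0.0126). Of its 50-base stretches, 78.2% recur in another gene, so its reads are uncertain. Gm6788 was at 3.97 to 4.13 RPKM in fed and 4.07 to 5.19 in fasted libraries, a change of 0.17 (SE 0.03, limma adjusted p = 0.0412). Lsmem1 was at 0.81 to 1.03 and 0.89 to 3.48 RPKM, a change of 0.69 (SE 0.14, limma adjusted p = 0.0832), and was called in 8 of 21 alternatives. For genes like these, the values near the no-read level are nearly equal across libraries, and a few reads set the change.

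Below the called genes, those with the smallest p that were protein coding, had a mean of at least 5 RPKM and no overlap between groups were taken next, so that the absence of overlap is part of their choice. Those higher in fasted mice included Bcl6, Slc2a1, Selenop and Ttyh1, and none of these 4 passed the adjusted threshold. Bcl6, a transcriptional repressor, was at 3.95, 6.31, 3.11, 5.92 and 4.47 RPKM in the fed and at 10.5, 8.82, 8.43 and 13 RPKM in the fasted libraries (change 0.97, SE 0.21, limma adjusted p = 0.129). Slc2a1, the glucose transporter GLUT1 of brain vessels and astrocytes, was at 17.3, 26.2, 31.2, 20.4 and 29.1 RPKM in the fed and at 48.8, 41.6, 45.6 and 42.5 RPKM in the fasted libraries (change 0.85, SE 0.19, limma adjusted p = 0.146). Both had their lowest fasted library well above the highest fed one. Selenop, the secreted carrier of selenium, was at 79.8 ± 13.5 RPKM in fed and 121 ± 14.4 in fasted mice (change 0.61, limma adjusted p = 0.162). Ttyh1, of the tweety family of membrane proteins, had the tightest values, at 63.1 ± 4.88 and 77.7 ± 3.92 RPKM (change 0.30, limma adjusted p = 0.195).

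The 10 genes chosen in the same way with lower values in fasted mice had adjusted p-values from 0.23 up to 0.519. Fabp7, the brain lipid-binding protein of radial glia and astrocytes, was at 48.7, 59.9, 88.4, 54.4 and 58.5 RPKM in the fed and at 28.6, 17.0, 25.6 and 36.6 RPKM in the fasted libraries. Its difference was the largest of the 10, at -1.19 (SE 0.31, limma adjusted p = 0.23), and was -1.68 and -0.86 within batches 2 and 3. Lipid enzymes were also in this group. Scd2, a stearoyl-CoA desaturase of the brain, was at 221, 240, 250, 230 and 242 RPKM in fed and at 196, 197, 185 and 180 RPKM in fasted libraries (difference -0.32, SE 0.09, limma adjusted p = 0.327), and Cyp51, the lanosterol demethylase of cholesterol synthesis, was at 36.3 ± 7.42 and 23.2 ± 3.58 RPKM (-0.61, SE 0.18, limma adjusted p = 0.388). Among neural genes, Grm3, a metabotropic glutamate receptor gene, was at 10.6 ± 2.81 and 5.11 ± 1.56 RPKM (-0.92), Nfasc, a cell adhesion gene of the axon initial segment and node, at 33.4 ± 2.40 and 26.2 ± 2.54 RPKM (-0.34), and Rnf112 at 15.6 ± 1.06 and 10.3 ± 1.02 RPKM (-0.56). The other 4 were the RNA-binding gene Hnrnpc (-0.50), the transcription factor genes Zfhx3 (-0.41) and Zbtb7a (-0.58), and D130043K22Rik (-0.60).

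Genes induced by glucocorticoids had the highest median of the lists examined. The list held 22 genes, and 4 of them, Glul, Mt1, Fam107a and Mt2, were among the called genes already given. At an unadjusted p under 0.05, 13 of the 22 were higher in fasted mice and 0 lower, against 3.99% and 2.48% of all genes tested. Among genes with reads in all 9 libraries, these shares were 2.42% and 1.74%. The list was chosen with earlier results of these data known, so its counts are not independent support. The groups did not overlap for 11 of 22, against 0.685% of all genes and 1.24% of those with reads in all 9 libraries. The median change was 0.72, where that of all genes with reads in all 9 libraries was 0.01. Within batches 2 and 3 the median was 0.71 and 0.83, with 18 and 22 of the 22 changes above 0. Over 22 alternatives, the median ranged from 0.66 to 0.81 and the number at an unadjusted p under 0.05 from 11 to 14. Among members that were not called, Cdkn1a, the cell cycle inhibitor p21, was at 5.98, 9.81, 7.38, 8.16 and 8.71 RPKM in the fed and at 26.7, 17.5, 21.4 and 21.4 RPKM in the fasted libraries (change 1.34, SE 0.42, limma adjusted p = 0.437). The separation was clear in each library, while the SE, taken over all 42 libraries, was wide. Plin4, a lipid droplet coat gene, was at 0.18 to 0.44 RPKM in fed libraries, where 0.19 is its no-read value, and at 2.9, 2.36, 2.56 and 1.01 RPKM in fasted libraries (change 1.26, limma adjusted p = 0.137). Sult1a1, a sulfotransferase gene, was at 2.59 ± 0.598 and 7.19 ± 1.94 RPKM (1.18, limma adjusted p = 0.388), Hif3a, which encodes a regulator of hypoxia-induced transcription, at 1.5 ± 0.944 and 4.63 ± 2.41 RPKM (1.16, limma adjusted p = 0.262), and the phagocytic receptor gene Mertk at 4.61 ± 0.898 and 9.2 ± 1.53 RPKM (0.86, limma adjusted p = 0.556). Other widely used glucocorticoid targets were less apart. Sgk1 was at 7.51 ± 2.38 and 12.7 ± 2.30 RPKM (0.72), Tsc22d3 at 8.38 ± 3.02 and 12.8 ± 1.6 RPKM (0.61), Fkbp5 at 1.75 ± 0.443 and 2.97 ± 1.68 RPKM (0.41, unadjusted p = 0.231), Per1 at 8.37 ± 3.11 and 9.54 ± 1.68 RPKM (0.22, unadjusted p = 0.342), and Pdk4 at 2.64 ± 1.40 and 2.37 ± 1.07 RPKM (-0.09). The receptors themselves were at 14.1 and 12.1 RPKM for Nr3c1 and 5.04 and 4.41 RPKM for Nr3c2 in fed and fasted mice.

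**Figure D3:**
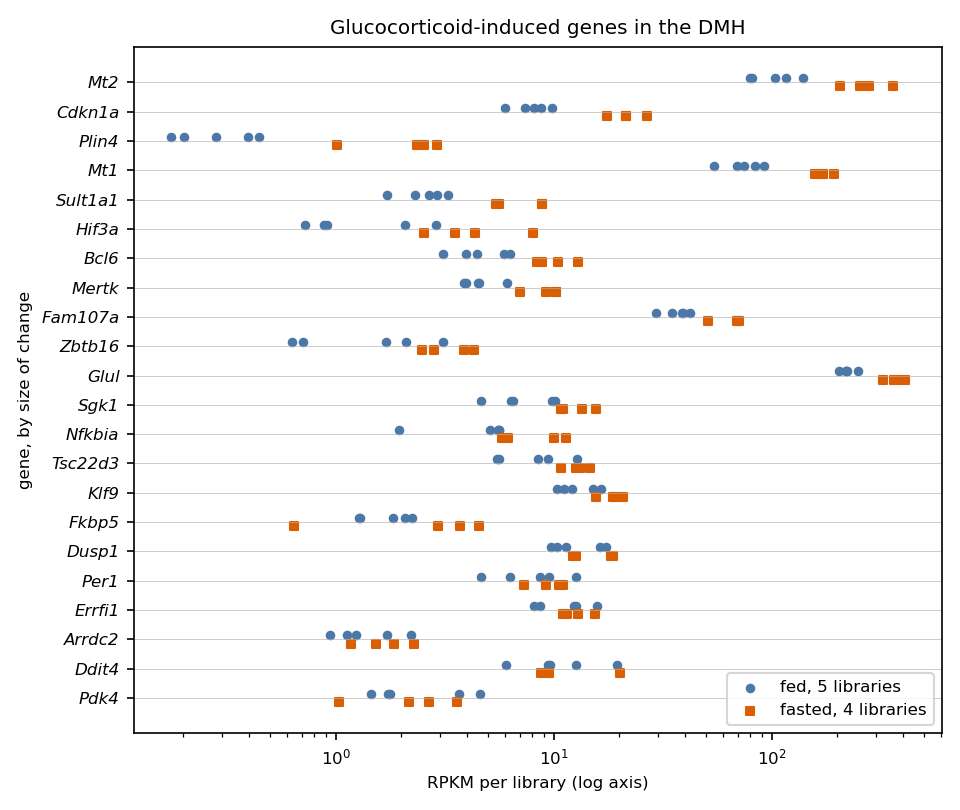
RPKM per DMH library (log axis) of the 22 glucocorticoid-induced genes, ordered by the size of the fasting change, with 5 fed libraries as blue circles and 4 fasted libraries as orange squares. The groups do not overlap for 11 genes, among them Mt2, Cdkn1a, Plin4 and Mt1 at the top, while Pdk4 and Ddit4 at the bottom are mixed.

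The zinc-handling genes beside Mt1 and Mt2 gave no such values. Of the 10 genes of this list, only Mt1 and Mt2 passed an unadjusted p under 0.05, and the median change was 0.07. Mt3, another metallothionein gene, was at 9.37 ± 5.67 RPKM in fed and 9.52 ± 4.95 in fasted mice. Mtf1, which encodes the metal-responsive transcription factor, was at 6.15 ± 1.8 and 4.92 ± 1.56 RPKM, and the zinc exporter gene Slc30a1, another metal-responsive gene, at 9.04 ± 1.98 and 9.10 ± 1.86 RPKM.

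The lipid synthesis lists lay slightly below 0. Of 25 cholesterol synthesis genes, 19 had a lower mean log2 level in fasted mice, 1 (Cyp51) passed an unadjusted p under 0.05, and 4 did not overlap downward, against 0.468% of all genes. Over the alternatives, the number at an unadjusted p under 0.05 ran from 1 to 8. Their median was -0.16, with -0.22 and -0.10 within batches 2 and 3. The 4 without overlap were Cyp51, Mvd (4.95 ± 1.58 and 2.85 ± 0.411 RPKM), Idi1 (10.1 ± 1.5 and 7.05 ± 1.23 RPKM) and Insig1 (27.8 ± 0.591 and 21.2 ± 1.93 RPKM), the last a sterol sensor that is itself a target of SREBP. Of 14 fatty acid synthesis genes, Scd2 and Me1 passed an unadjusted p under 0.05, both with lower values in fasted mice (2.48% of all genes were lower), and the median was -0.14. Me1, the malic enzyme that supplies NADPH, was at 19.1 ± 5.13 and 11.2 ± 4.17 RPKM, and 28.3% of its 50-base stretches recur in another gene. Fasn, the fatty acid synthase, was at 17.7 ± 1.99 and 16 ± 2.44 RPKM.

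In the list for fatty acid oxidation and ketone use, 20 of 22 genes did not pass an unadjusted p under 0.05 and the median was 0.08. Angptl4, a secreted inhibitor of lipoprotein lipase that is induced by fasting in other tissues, was at 0.55, 1.08, 1.49, 0.51 and 0.83 RPKM in the fed and at 4.68, 2.93, 2.66 and 3.52 RPKM in the fasted libraries. Its groups did not overlap (change 1.24, SE 0.29, limma adjusted p = 0.154). Acadvl, the very long-chain acyl-CoA dehydrogenase, was lower in fasted mice at 11.6 ± 3.77 against 17.0 ± 4.72 RPKM (-0.53), and 42.9% of its exon length overlaps another gene. Cpt1a, which controls entry of fatty acids into mitochondria, was at 4.62 and 6.14 RPKM in fed and fasted mice. Of the 22 insulin and FoxO pathway genes, 0 passed an unadjusted p under 0.05 in either direction, with Insr at 14.9 and 15.6, Irs2 at 10.3 and 10.8 and Foxo1 at 12.3 and 12.6 RPKM.

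Cytosolic chaperone genes had lower means in fasted mice for 18 of 20 members, with a median of -0.19, with unequal values by batch. The median was -0.38 within batch 2, with 1 of 20 above 0, and -0.03 within batch 3, with 8 of 20 above 0. Members at an unadjusted p under 0.05 were Hsp90aa1, Hspa8, Hsph1, Dnajb1 and Dnajb4, 5 of 20 downward against 2.48% of all genes, and 0 of the 20 were without overlap. Over the alternatives, this number ran from 0 to 8. Hsp90aa1 was at 165 ± 16.7 and 142 ± 2.67 RPKM, and 47.5% of its 50-base stretches recur in another gene. Dnajb1 was at 129, 132, 82.6, 91.4 and 72.7 RPKM in the fed and at 68.6, 53.4, 65.9 and 93.0 RPKM in the fasted libraries, with a difference of -0.78 within batch 2 and -0.06 within batch 3. In the unfolded protein response list, 4 of 20 genes were lower and 1 higher at an unadjusted p under 0.05, against 2.48% and 3.99% of all genes, and the number in either direction ran from 1 to 6 over the alternatives. Its median was -0.21 within batch 2 and 0.005 within batch 3, with 10 of 20 above 0 in the latter. The lower genes were Pdia4, Hspa5, Dnajb11 and Trib3. Pdia4, a protein disulfide isomerase, was at 21.4 ± 4.19 and 13.1 ± 1.79 RPKM without overlap (-0.65, limma adjusted p = 0.557), Hspa5, the ER chaperone BiP, at 142 ± 23.1 and 118 ± 14.6 RPKM, and Hyou1 was higher at 22.6 ± 3.23 and 28.8 ± 2.9 RPKM.

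Of the 19 clock genes, 1 was higher at an unadjusted p under 0.05 (0 to 4 in either direction over the alternatives), a share near the 3.99% of all genes. It was Cry1, a repressor of the clock, at 6.03 ± 1.65 RPKM in fed and 8.89 ± 2.27 in fasted mice. Nr1d1 was at 37.1 and 28.8 RPKM and Dbp at 3.59 and 2.34 RPKM in fed and fasted mice, and neither passed it. Of the 18 immediate-early genes, which mark recent neuronal activity, 0 passed it in either direction. Fos was at 6.39 and 4.63 RPKM, Egr1 at 30.2 and 35.8 RPKM and Npas4 at 1.89 and 2.09 RPKM.

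**Figure D4:**
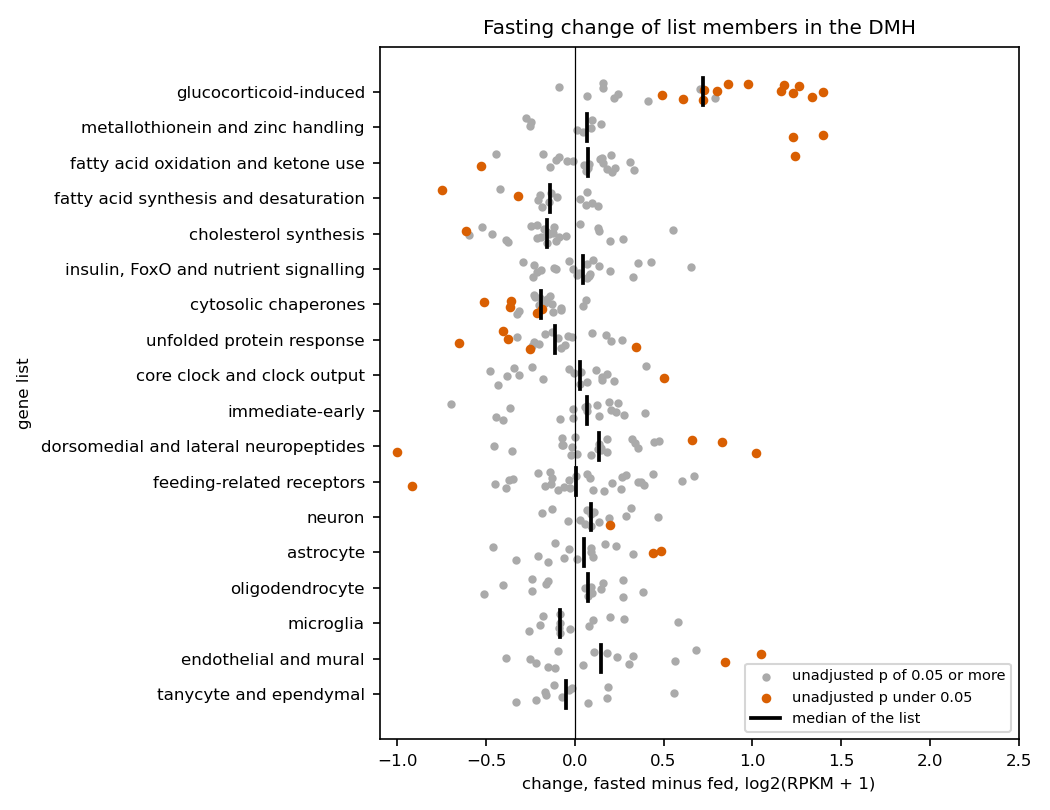
Fasted minus fed change in log2(RPKM + 1) of each member of 18 gene lists in the DMH, with members at an unadjusted p under 0.05 in orange, other members in gray, and the median of the list as a black bar. The median of the glucocorticoid-induced list stands at 0.72, and those of the other 17 lists lie between -0.19 and 0.15.

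Among 25 peptide genes of the DMH and its surroundings, 3 were higher and 1 lower in fasted mice at an unadjusted p under 0.05, against 3.99% and 2.48% of all genes, and the median was 0.14. Npy, the orexigenic neuropeptide Y, was at 12.7, 4, 3.73, 6.10 and 6.70 RPKM in the fed and at 17.0, 18.1, 5.60 and 17.7 RPKM in the fasted libraries (change 1.02, SE 0.47, limma adjusted p = 0.762). The groups overlapped, because DMH-Fast library 3 lay among the fed libraries and DMH-Fed library 1 came near the fasted ones. Within batches 2 and 3, the change was 1.93 and 0.59. Agrp, which is made together with Npy in ARC neurons, was at 3.49 ± 1.78 and 4 ± 1.55 RPKM. Pomc, the precursor of the anorexigenic peptide alpha-MSH in ARC neurons, was at 11.3, 12.2, 15.4, 10.2 and 3.55 RPKM in the fed and at 3.9, 3.36, 5.12 and 5.14 RPKM in the fasted libraries (-0.999, SE 0.31, limma adjusted p = 0.44), so that DMH-Fed library 5 lay within the fasted range. The difference for Pomc was -1.67 within batch 2 and -0.22 within batch 3. In the ARC of fed mice, Agrp was at 133, Npy at 345 and Pomc at 518 RPKM. The ARC changes with fasting were 1.33 (SE 0.44) for Npy and -0.51 (SE 0.30) for Pomc. Summed ARC markers of the DMH libraries, with Npy and Pomc, spanned 58.4 to 128 RPKM in fed and 70.5 to 97.1 in fasted mice. Ghrh gave most of this sum, at 64.9 RPKM in the DMH, 199 in the ARC and 31.3 in the PVN of fed mice. In the fed DMH and ARC, Crabp1 was at 3.72 and 210 RPKM and Tbx3 at 1.61 and 31.1 RPKM. How much of the Npy and Pomc reads came from ARC tissue was not tested.

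Crh, the corticotropin-releasing hormone gene, was at 1.55, 1.35, 1.96, 1.52 and 5.55 RPKM in the fed and at 3.40, 6.84, 5.61 and 3.14 RPKM in the fasted libraries (change 0.83, SE 0.20, limma adjusted p = 0.162). DMH-Fed library 5 alone among the fed libraries lay within the fasted range. Leaving out each library in turn gave limma adjusted p-values for Crh from 0.00091, without that library, to 0.305, and it was called in 4 of 22 alternatives. Within batches 2 and 3 its change was 1.16 and 0.36. Crh is also a PVN marker, at 19.8 RPKM in the PVN of fed mice, and the summed PVN markers, Crh and Trh included, were at 77.9 to 85.7 RPKM in fed and 86.5 to 104 in fasted DMH libraries, without overlap. Without Trh, the most abundant of the 6 PVN markers in the DMH, the sum differed by -0.0797 (log2, exact permutation p = 0.698). The change was above 0 for 4 of the 6 and below 0 for Oxt (-0.22, SE 0.49) and Avp (-0.19, SE 0.38). In the PVN of fed mice, Oxt was at 4066 and Avp at 2113 RPKM, while Oxt in the fed DMH was at 20.8 RPKM. The part of PVN tissue in the Crh values was not tested. Bdnf, a neurotrophin that lowers food intake, was at 0.870 ± 0.172 and 1.99 ± 0.649 RPKM without overlap (change 0.66, limma adjusted p = 0.665), and 14.4% of its exon length overlaps another gene. The DMH marker peptide genes did not pass an unadjusted p under 0.05, with Npvf at 103 ± 37.8 and 97.8 ± 30.1 RPKM and Grp at 16.6 ± 3.84 and 17.8 ± 4.26 RPKM. Ppp1r17, a phosphatase regulator gene on the same marker list, was at 49.6 and 49.7 RPKM in the DMH, while in the PVN it was at 18.9 RPKM in fed and 47.3 in fasted mice. Of the abundant peptides, Sst was at 344 ± 63.7 and 469 ± 91.8 RPKM (unadjusted p = 0.0806), Gal at 210 ± 52.6 and 226 ± 29.0 RPKM and Cartpt at 191 ± 73.8 and 143 ± 27.0 RPKM. Of 29 feeding-related receptor genes, 1 passed an unadjusted p under 0.05. This was Glp1r, the GLP-1 receptor, at 6.62, 15.5, 7.45, 17.0 and 13.8 RPKM in the fed and at 10.03, 6.06, 6.36 and 2.16 RPKM in the fasted libraries (-0.92, limma adjusted p = 0.762), with overlap. The leptin receptor gene Lepr was at 1.72 and 2.04 RPKM and Mc4r at 1.36 and 1.5 RPKM in fed and fasted mice, levels at which few reads were counted.

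Markers of other cell types were set beside these results. The astrocyte list, which does not hold Glul, had 2 of 16 genes higher at an unadjusted p under 0.05 (3.99% of all genes, 1 to 3 members over the alternatives) and a summed level of 685 to 840 RPKM in fed and 781 to 863 in fasted libraries. The 2 genes were Aldoc (199 ± 24.3 and 269 ± 21.7 RPKM) and Fgfr3 (7.19 and 10.4 RPKM). The astrocyte sum differed by 0.12 (log2, exact permutation p = 0.0952), and by -0.01 without Aldoc, its most abundant gene (exact permutation p = 0.889). Other defining astrocyte genes were Slc1a2 at 152 and 145, Slc1a3 at 54.2 and 58.2, Aqp4 at 19.4 and 16.1 and Gfap at 3.95 and 3.36 RPKM. The endothelial and mural list had 2 of 16 genes higher at an unadjusted p under 0.05 (2 to 3 over the alternatives), Slc2a1 and the lipid transporter gene Mfsd2a (7.23 ± 2.3 and 15.5 ± 2.07 RPKM, without overlap). Its summed level was 125 to 171 RPKM in fed and 174 to 197 in fasted libraries, and without these 2 genes it was 98.7 to 136 and 108 to 141 RPKM, which overlap. Pecam1 was at 3.41 and 3.13, Cldn5 at 7.59 and 7.79 and Flt1 at 6.21 and 6.43 RPKM. The neuron list had 1 of 15 genes higher at an unadjusted p under 0.05 (0 to 4 over the alternatives), a share near that of all genes, which was Snap25 at 373 ± 41.4 and 429 ± 46.3 RPKM. In the oligodendrocyte, microglia, tanycyte and ependymal, blood and choroid plexus lists this number was 0. The choroid plexus gene Ttr was at 1.91 and 1.39 RPKM in fed and fasted mice. Markers of the neighboring VMH summed to 11.5 to 24.5 RPKM in fed and 21.1 to 47.6 in fasted libraries, of which Nrgn gave most, and those of the PVN to 77.9 to 85.7 and 86.5 to 104 RPKM, of which Trh gave most. The part of these markers in the called genes was not tested.

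The other nuclei were used to ask whether any response was larger in the DMH. The change in the DMH minus the mean change of the ARC, VMH and PVN passed the adjusted threshold for 0 of 33579 genes (0.0%) by limma, and an unadjusted p under 0.05 for 1195 genes more positive (3.56%) and 576 more negative (1.72%) in the DMH. This count was 3 with array weights, and 6, 44, 55 and 28 without DMH-Fast library 1, 2, 3 or 4. No gene is called particular to the DMH here. The 5 genes of smallest p were Gm13238, Prr22, Lsmem1, Olfr140 and Gm6788 (each at a limma adjusted p = 0.242), and each lacked reads in some of the 9 DMH libraries. The genes given next were chosen by their change in the DMH, which is part of this difference, so their p-values are affected by that choice. Acvr1b changed by 0.67 in the DMH and by 0.05, 0.07 and 0.11 in the ARC, VMH and PVN, a difference of 0.59 (SE 0.15, limma adjusted p = 0.492, unadjusted p = 0.000429). Mt1 had 1.23 against 0.59, 0.48 and 0.43 (difference 0.73, SE 0.20, limma adjusted p = 0.609), and Ttyh1 0.30 against 0.02, -0.05 and -0.04 (difference 0.32, SE 0.08, limma adjusted p = 0.492). Glul had 0.73 against 0.51, 0.27 and 0.49, Mt2 1.40 against 1.09, 1.10 and 0.71, and Fam107a 0.80 against 0.86, 0.41 and 0.81. For Cyp51 the values were -0.61 against -0.18, -0.14 and 0.14. Fabp7 and Scd2 had differences from the other nuclei of -0.21 (SE 0.35) and 0.08 (SE 0.10). The median change of the glucocorticoid-induced list was 0.72 in the DMH, against 0.49 (ARC), 0.46 (VMH) and 0.71 (PVN). The median difference of its 22 genes from the other nuclei was 0.09, and 2 of them had an unadjusted p under 0.05. The nuclei were cut from the same brains, so these values are not independent of each other.

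**Figure D5:**
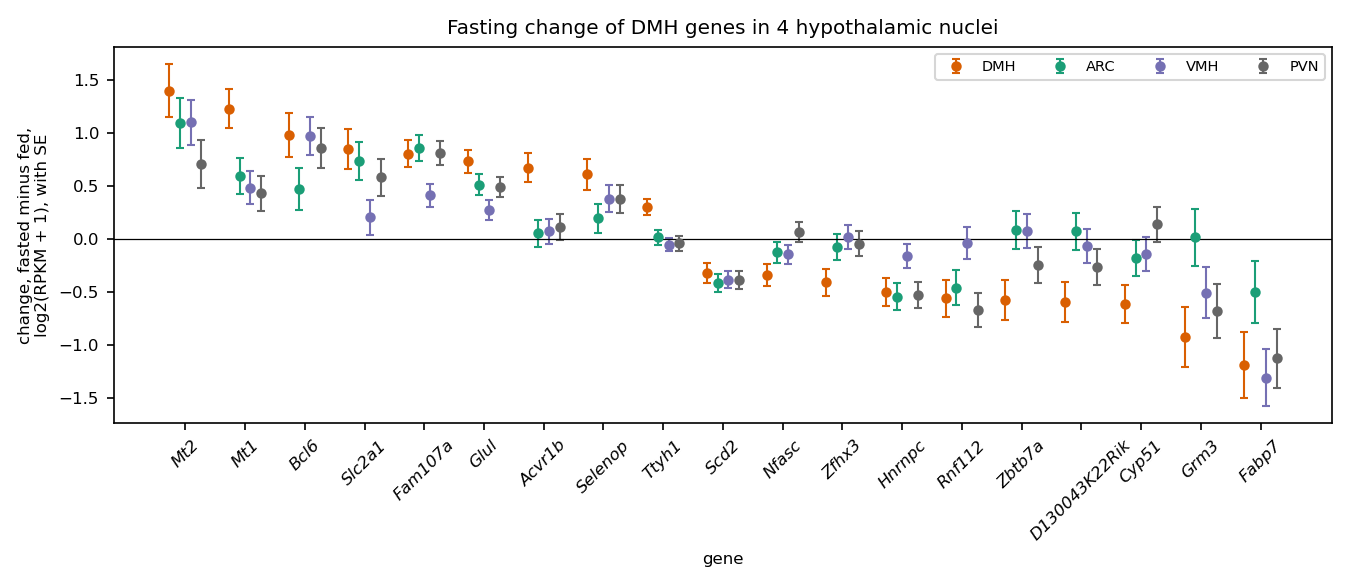
Fasted minus fed change in log2(RPKM + 1), with its SE, in the DMH (orange), ARC (green), VMH (purple) and PVN (gray) for 19 genes chosen by p and lack of overlap in the DMH. Acvr1b and Ttyh1 lie above 0 in the DMH and near it elsewhere, while Mt2, Fam107a, Scd2 and Fabp7 lie on the same side of 0 in all 4 nuclei.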

How the data were processed

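The values were RPKM that the authors deposited for 37907 Ensembl genes in 42 libraries. Per the labels and methods, RNA was amplified (NuGEN Ovation V2) and single-end reads without strand were mapped to GRCm38 with TopHat2 2.0.11. Cufflinks 2.2.1 and CASAVA 1.7 were named as well. The lowest values recurred between libraries, and from them depth, an added count (mean 5.00 reads) and the removal of batch means were inferred. The median no-read value was 1.55 RPKM. Depths are estimates, with a mean of 4.57 M reads over the 42 libraries. This is below the average of sequenced reads per sample that the paper gives over a larger set of samples. Of the no-read values, 75.5% matched the exon length within 1%.

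Because RPKM are not counts, limma 3.58.1 (R 4.3.3) was fitted to log2(RPKM + 1) over 8 group means of 42 libraries, with an intensity trend, for 33579 genes at 1 RPKM or more in at least 4 libraries, and p-values were adjusted by Benjamini-Hochberg. Of these genes, 4747 had no reads in any library. Single values had exact permutation tests. Named genes were those past the threshold, the 10 of smallest p in each direction without overlap and at a mean of 5 RPKM or more, list members at an unadjusted p under 0.05 (or the 2 of smallest p), region markers, and the 5 genes of smallest p in the comparison with other nuclei. Members with values given for context were chosen after their values were seen. Members and gene lists were chosen with earlier results of these data known. Names and positions are from GENCODE M21 and promoters from RefSeq (GRCm38.p6). Mitochondrially encoded genes and Kiss1 were not analysed here. Results for a few other genes are not reported here.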

Additional observations from a re-analysis of the deposited data

Results flagged for a closer look

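In 99 named genes and 2 groups each, 198 groups of DMH libraries were searched for a library far from the others, by its gap to the nearest library relative to the range of the group. It was met in 13 groups, where chance flags about 1 in 20, or 9.9. Values are RPKM. Among called genes, Fam107a was at 51.2 in DMH-Fast library 4 (others 69.1 to 70.9). Among the other genes chosen by p, Fabp7 was at 88.4 in DMH-Fed library 3 (others 48.7 to 59.9), Hnrnpc at 74.5 in DMH-Fed library 1 (52.4 to 56.6) and D130043K22Rik at 2.96 in DMH-Fast library 2 (6.42 to 7.02). Among stress genes, Hsph1 was at 149 in DMH-Fed library 2 (96.9 to 107) and Trib3 at 3.21 in DMH-Fed library 3 (0.527 to 1.29). Among peptide genes, Npy was at 5.60 in DMH-Fast library 3 (17.0 to 18.1), Crh at 5.55 in DMH-Fed library 5 (1.35 to 1.96) and Pmch at 1003 in DMH-Fed library 1 (220 to 307). Among cell type genes, Aldoc was at 241 in DMH-Fed library 2 (184 to 197) and Mbp at 28.8 in DMH-Fed library 4 (43.7 to 48.4). Among markers of other nuclei, Sox14 was at 2.27 in DMH-Fast library 2 (0.766 to 0.97) and Sim1 at 1.12 in DMH-Fast library 1 (2.05 to 2.21). The values of DMH-Fed library 1, the only DMH library of batch 1, may be shifted by the removal of batch means.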

How the results depend on the processing

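The 8 calls became 5 with a filter of at least 5 RPKM in 4 libraries, 0 with DMH libraries alone (808 genes higher and 553 lower at an unadjusted p under 0.05), 56 with array weights and 4 when rescaled without unnamed IDs, and ranged from 6 to 89 without 1 library. The 89 came without DMH-Fast library 3, where 77 had no reads in at least 1 DMH library and 7 were shared with the 8. Without DMH-Fast library 1, 2 or 4 there were 42, 75 and 77 calls, and without DMH-Fed library 1, 2 or 3 14 each, of which 5, 7 and 6 were lower in fasted mice. Without DMH-Fed library 5 there were 12. Among detected genes (above the no-read value in 4 libraries) there were 6 calls, which became 11, 19 and 20 without DMH-Fast library 1, 3 or 4 and 4 or 5 without any other DMH library, an alternative chosen after seeing the data. The count of 0 genes in the comparison with other nuclei became 3 with array weights and ranged from 0 to 55 without 1 library, the highest being without DMH-Fast library 3. The cause was not tested. Without Trh, its most abundant gene, the summed PVN marker level differed by -0.0797 in place of 0.186 (log2). The labels name no mouse, and libraries of the same number were not treated as pairs. Same-numbered DMH libraries had correlations of deviations from -0.0706 to 0.0496, and differently numbered ones reached 0.0685. With groups of 4 and 5 libraries, these values cannot decide whether the numbers pair them. The fit with the replicate block called 6 genes, losing Acvr1b and Lsmem1. At this depth, differences near the no-read value of a gene were not resolved.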
